A study of Mus musculus with 36 samples.

Results

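The 1000 largest clusters of H3K27ac peaks in control mouse hippocampus were followed through the peak lists of 7 histone marks. They were chosen by the control lists alone, from 48989 clusters on the 19 autosomes. H3K27ac peaks of the control lists of 2 and 6 weeks with a -log10 p of at least 5 were pooled, overlapping peaks were merged, and merged peaks lying within 3 kb of each other were joined into a cluster. Clusters were ranked by the summed length of their merged peaks, and the first 1000 were kept. They made up 2.04% of the clusters and held 19.6% of the pooled acetylated length, 20.8 of 106 Mb.

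Chromatin came from the hippocampus of female mice whose age the labels give as 3 months at both times. CKp25 animals are double-transgenic CK-p25 mice, sampled 2 or 6 weeks after induction of p25 (a shortened form of the p35 protein that activates the kinase Cdk5), and CK animals are their control littermates. The labels do not name the promoter that drives p25 (in the published line it is that of CaMKII, active in forebrain neurons), nor the transgenes that the CK littermates carry. Each combination of genotype, time and mark has 1 peak list, so there are 4 lists per mark and 28 in all, and the labels do not say whether animals were pooled for a list. There are therefore no replicates: every value below describes these lists, with no error and no test, and the lists give no counts, so their depth is unknown. In bulk tissue, fewer cells of a type and less signal per cell cannot be told apart. The peaks carry no gene names and were not set against an annotation, so clusters are given by position, and the tissue label was not checked against marker genes.

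Acetylation of lysine 27 of histone H3 marks active promoters and enhancers. Long runs of it, often called super-enhancers or stretch enhancers, are known to lie around genes that set a cell's identity, in brain largely those of its neurons and glia. H3K4me1 accompanies enhancers, H3K4me3 promoters, and H3K36me3 and H4K20me1 the bodies of transcribed genes. H3K27me3 is laid down by the Polycomb system over silenced developmental genes and cannot share a tail with H3K27ac, and H3K9me3 marks heterochromatin.

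The measure used throughout is cover, the length of a cluster's span that lies under peaks with a -log10 p of at least 5 in a list. A cluster counts as measured for a mark and a pair of lists when either cover reaches 500 bp. It is called lower or higher when its covers then differ at least 2-fold, and log2 ratios are of cover plus 500 bp. Cover saturates: a region that stays above the caller's threshold keeps its cover however its signal changes. A whole cell extract was sequenced per group, so the marks of a group may share their background, and depth or quality of a library moves its list, so the length of each whole list is given beside the clusters' own.

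The clusters were long and unequal in size. The median span was 24910 bp, from 11800 to 137530 bp, with 12 merged peaks in the median cluster and 2 to 76 at the extremes. Spans reached at least 50 kb in 86 clusters and at least 100 kb in 9. The 1000 clusters ranked next had a median span of 13915 bp, and the remaining 46989 one of 1428 bp. The threshold of the ranking falls in a continuum: ranks 999 and 1000 held 11586 and 11568 bp of merged peaks, and the following pair 11546 and 11540 bp. Chromosome 11 held 104 of the clusters, 10.4% against its 8.31% of all pooled acetylated length. Chromosome 2 held 89, 8.9% against 8.16%, and chromosome 16 held 24, 2.4% against 3.46%. Clusters were often neighbours, with 498 of the 1000 within 100 kb of another one.

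The largest cluster, chr9:48514048-48646724 (mm9, as all positions here), spans 132677 bp, of which 107006 bp are merged peaks. Its H3K27ac cover was 95764 bp in CK and 92713 bp in CKp25 at 2 weeks, and 91941 and 89332 bp at 6 weeks. The second, chr8:96333156-96468389, had 94566 and 91528 bp at 2 weeks and 85648 and 97680 bp at 6 weeks. All 4 lists thus cover most of both clusters, and the order of the genotypes differs between times in the second. The third, on chromosome 18, is the longest span of all and had 92065 and 94432 bp at 2 weeks and 86895 and 86905 bp at 6 weeks. Rank 4 at chr8:87222006-87325311 was the most continuous of the 10 largest, with only 24 merged peaks, and had the greatest H3K4me3 cover of any member, 63933, 72641, 70084 and 76020 bp in CK and CKp25 at 2 weeks and CK and CKp25 at 6 weeks. Over the 10 largest, the log2 ratio of H3K27ac in CKp25 to CK lay between -0.30 and 0.04 at 2 weeks and between -0.41 and 0.19 at 6 weeks. The lowest of these values at each time belong to 1 cluster, rank 8 at chr11:23960240-24065165, whose H3K27ac cover was 69278 bp in CK and 56150 bp in CKp25 at 2 weeks and 63783 and 48044 bp at 6 weeks. It was also the only one of the 10 with H3K27me3 peaks, at 1707, 3015, 5923 and 7479 bp in the same order of lists. Rank 9, chr14:64735089-64845376, stood apart in another way: 67506 bp of H3K27ac in CK at 2 weeks, but no H4K20me1 base in 3 of the 4 lists and 292 bp in CKp25 at 6 weeks.

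Besides the mark that chose them, the clusters carried the marks of enhancers, promoters and transcribed bodies together. H3K4me1 covered at least 500 bp of all 1000 clusters in both CK lists, H3K4me3 of 966, H4K20me1 of 841 and H3K36me3 of 733, while H3K27me3 did so in 30 and H3K9me3 in 1. The 1000 clusters ranked next were close to this for H3K4me1 (997) and H3K4me3 (896) and lower for H4K20me1 (676) and H3K36me3 (501), and 44 of them carried H3K27me3. Among the clusters below those, which are far shorter and so reach 500 bp less easily, the shares were 46.4% for H3K4me1, 41.9% for H3K4me3, 23.1% for H4K20me1, 8.96% for H3K36me3 and 2.24% for H3K27me3. The percentage of a cluster's span that is covered does not depend on length in that way. In CK at 2 weeks the median cluster had 61.7% of its span under H3K27ac, 57.5% under H3K4me1, 49.4% under H4K20me1, 25.8% under H3K4me3 and 17.0% under H3K36me3. In the next 1000 clusters these medians were 58.5, 50.1, 32.6, 22.1 and 6.16%, so the transcription-linked marks differed most between the ranks.

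**Figure D1:**
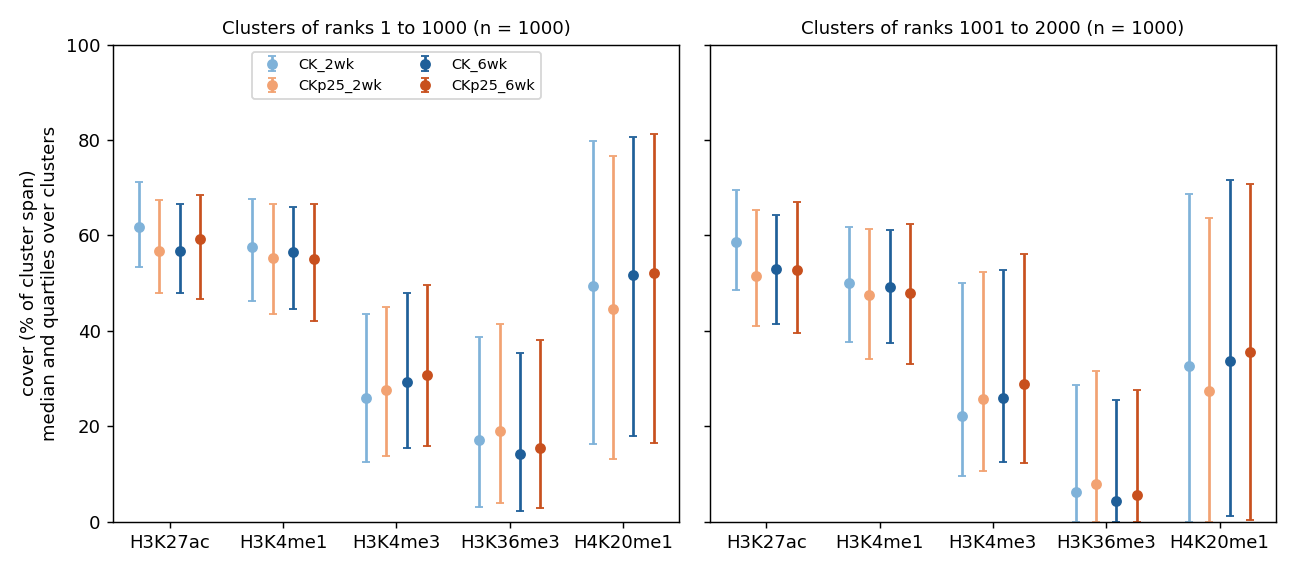
Cover as a percentage of the cluster span (y axis) for 5 marks (x axis) in the 4 lists, with points for the median over clusters and bars for the quartiles, in the 1000 largest clusters (left) and the 1000 ranked next (right). H4K20me1 has the widest bars, and its CK median at 2 weeks is 49.4% on the left and 32.6% on the right.

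The marks were also compared between the peaks and the gaps of the clusters, pooled over all 1000. Bases acetylated in both CK lists came to 14.1 Mb in the clusters, and bases of the span in neither list, the gaps, to 8.71 Mb. In CK at 2 weeks H3K4me1 lay over 78.7% of the acetylated bases and 21.9% of the gap bases, and H3K4me3 over 47.0 and 6.77%. H3K36me3 covered both alike, 23.1 and 22.5%, and H4K20me1 nearly so, 51.6 and 43.9%. In the pooled bases the marks of transcribed bodies thus had similar shares of acetylated and gap bases. The enhancer and promoter marks had larger shares of the acetylated bases. Single clusters were not compared in this way, so the shares do not show how the marks run within a cluster. Acetylated bases outside the 1000 clusters were more often under H3K4me3, 64.9%, and less often under H3K4me1, 60.4%, or H3K36me3, 8.17%. Clusters and broad H3K4me3 domains overlapped in part: 276 of the clusters (27.6%) overlapped the 1000 longest H3K4me3 domains of the CK lists, and 306 of those domains (30.6%) overlapped a cluster. Of the 1000 clusters ranked next, which are shorter, 158 overlapped those domains. The 1000 largest H3K27me3 domains were overlapped by 8 of the clusters and by 11 of those ranked next.

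H3K27ac in CKp25 covered nearly as much of the clusters as in CK. Summed over the 1000 clusters it was 18.2 Mb in CK and 16.8 Mb in CKp25 at 2 weeks, 92.6%, and 16.8 and 16.9 Mb at 6 weeks, 101%. The whole autosomal lists of CKp25 were 96.1 and 113% as long as those of CK. Since the clusters were ranked on the CK lists, the choice favours a lower value in any other list, and these ratios are a description. Ranking on 1 CK list and comparing at the other time leaves the ranking list out of the ratio. The clusters are still chosen and bounded in CK, and how far this favours CK was not tested. Clusters ranked on CK at 2 weeks alone had 102% of the CK cover in CKp25 at 6 weeks, and clusters ranked on CK at 6 weeks alone had 95.8% in CKp25 at 2 weeks. The value at 2 weeks is close to the 96.1% of the whole list, and the value at 6 weeks lies below the 113% of its list.

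Few clusters differed 2-fold at the threshold used. At 2 weeks 4 of the 1000 were called lower and 0 higher in CKp25, and the background, the share of all measured clusters so called, was 21.5% lower and 2.72% higher. At 6 weeks 11 were lower and 0 higher, against 17.2 and 6.88%. The balance depends on the choice of lists: with clusters ranked on all 4 H3K27ac lists, 2 were lower and 7 higher at 2 weeks and 5 lower and 22 higher at 6 weeks. The number depends on the peak threshold, with 61 lower and 11 higher at 2 weeks and 81 and 51 at 6 weeks for peaks with a -log10 p of at least 10. A single cluster, rank 398 below, was lower and 0 were higher at both times (4.18 and 0.177%). Of all clusters 25485 are a single merged peak, and the 1000 were chosen for length in CK, so nothing is read from the distance to the background. The median log2 ratio was -0.10 at 2 weeks (5th to 95th percentile -0.56 to 0.19) and 0.02 at 6 weeks (-0.57 to 0.44). With the 4 lists brought to a common length these medians were -0.05 and -0.06, so the sign at 6 weeks turned. The 2 CK lists also differed from each other: their median log2 ratio, 6 against 2 weeks, was -0.10 (-0.45 to 0.14), with 3 clusters lower and 0 higher by 2-fold (background 18.3 and 8.88%). Between the CKp25 lists it was 0.01, with 1 lower and 1 higher (8.39 and 7.39%).

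Single bases were compared as well. Of the 14.1 Mb acetylated in both CK lists within the clusters, 79.7% were acetylated in both CKp25 lists and 5.41% in neither, compared with 75.8 and 7.80% over all autosomes. A further 8.11% were acetylated in CKp25 at 2 weeks only and 6.80% at 6 weeks only. Of 8840 stretches of at least 500 bp acetylated in both CK lists, 119 (1.35%) had no acetylated base in a CKp25 list, against 1.95% over all autosomes. In the median cluster 3.97% of the bases shared by the CK lists were in neither CKp25 list, in 43 clusters none were, and in 46 at least 20% were. In the other direction, 0.568 Mb of the clusters was acetylated in both CKp25 lists and in neither CK list. This is 4.02% of the length shared by the CK lists, compared with 10.2% over all autosomes, and the CK lists drew the clusters' bounds.

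The log2 ratios of the 2 times, which share no list, had a Pearson r of 0.54 and a Spearman rho of 0.49 over the 1000 clusters. The points of the 2 ratios share their cluster spans and base composition, whose part in the correlation was not tested, and 498 of them have a neighbour within 100 kb. In 407 clusters the ratio was below 0 at both times, in 223 above 0 at both, in 298 below at 2 weeks and above at 6 weeks, and in 72 the reverse. A log2 ratio of -0.5 or lower at both times was found in 34 clusters, and 0.5 or higher at both times in 0. Among the 1000 clusters ranked next these counts were 47 and 1. The background of these calls over all 48989 clusters was 8.02 and 0.425%, and the direction towards CK is the one that the ranking favours.

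**Figure D2:**
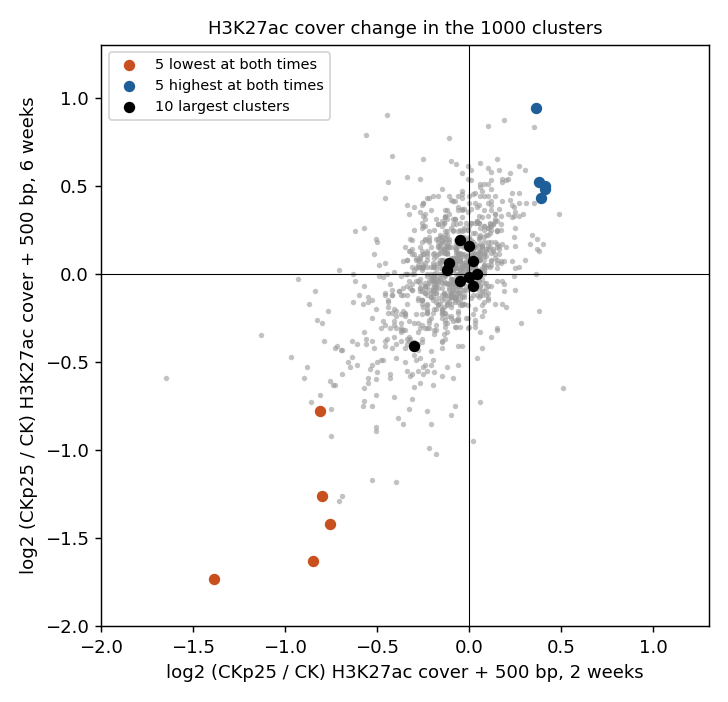
Each point is 1 of the 1000 clusters, at its log2 ratio of H3K27ac cover plus 500 bp in CKp25 to CK at 2 weeks (x axis) and at 6 weeks (y axis). The 5 clusters lowest at both times (orange) reach -1.73 at 6 weeks, the 5 highest (blue) reach 0.94, and 9 of the 10 largest clusters (black) lie near 0.

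The clusters with the lowest H3K27ac in CKp25 were taken as the 5 lowest by the smaller of their 2 changes. Rank 398, chr11:57010014-57039270, was the lowest at both times by this measure. Its 29257 bp span held 13581 bp of H3K27ac in CK and 4876 bp in CKp25 at 2 weeks, and 12494 and 3422 bp at 6 weeks, log2 ratios of -1.39 and -1.73. Of its bases acetylated in both CK lists 47.5% were in neither CKp25 list, the highest share of any cluster. H3K4me1 in it was 4777, 4132, 5445 and 2518 bp in the order CK and CKp25 at 2 weeks, CK and CKp25 at 6 weeks, and H3K36me3 was 13273, 10823, 11214 and 4919 bp. H3K4me3 was nearly absent, with 515 bp in CK at 6 weeks alone, and no H3K27me3 peak was present. At 6 weeks the lower cover in CKp25 thus extended to H3K4me1 and H3K36me3, and no H3K27me3 was listed in its place.

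Rank 607, chr11:57211418-57235489, and rank 689, chr11:57123254-57138808, lie near it, and the 3 fall within a stretch of 225 kb that holds no other of the 1000 clusters. Rank 607 had 13345 and 7207 bp of H3K27ac at 2 weeks and 10747 and 3137 bp at 6 weeks, and its H3K4me1 was 3576 bp in CK and 0 in CKp25 at 6 weeks. It had no H3K36me3 or H4K20me1 base in any list. Rank 689, a block of only 4 merged peaks, had 12871 and 7108 bp at 2 weeks and 12690 and 7173 bp at 6 weeks, so that its CKp25 covers were alike at both times. Its H3K36me3 was 5175 bp in CK and 1623 bp in CKp25 at 6 weeks. In all 3 both CKp25 lists lay below both CK lists for H3K27ac.

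The other two lie elsewhere. Rank 777, chr11:4925393-4946997, had 10198 and 5645 bp at 2 weeks and 9295 and 3597 bp at 6 weeks. Its H3K36me3 stayed between 17224 and 17590 bp in the 4 lists while its H3K4me1 was 7292 bp in CK and 2469 bp in CKp25 at 6 weeks. Rank 895, chr13:12086694-12112793, had 8837 and 5005 bp at 2 weeks and 8210 and 2749 bp at 6 weeks, with no H3K36me3 base in any list. None of the 5 had an H3K27me3 peak in any list, and H3K4me3 in them did not exceed 1353 bp in any list. Rank 786, chosen after its values were seen, had the lowest ratio of all at 2 weeks, -1.65, and -0.59 at 6 weeks.

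The 5 clusters highest in CKp25 differed by less than the 5 lowest. Rank 990, chr12:3854896-3874495, had 10209 bp of H3K27ac in CK and 13690 bp in CKp25 at 2 weeks, and 9077 and 12856 bp at 6 weeks. Rank 734, chr2:129411327-129433330, had 11501 and 15400 bp, then 11159 and 16005 bp. Rank 968, chr3:95788661-95805918, had 10431 and 13499 bp, then 7902 and 15572 bp, a log2 ratio of 0.94 at 6 weeks and the highest of any cluster at that time. Ranks 339 (chr19:40420656-40454896) and 914 (chr17:84352485-84373787) had log2 ratios of 0.39 and 0.38 at 2 weeks and 0.43 and 0.52 at 6 weeks. In these 5 clusters both CKp25 lists lay above both CK lists, for H3K4me1 as well in ranks 990, 734, 339 and 968. In rank 914 the H3K4me1 covers, 8571, 9910, 10199 and 11406 bp, overlapped between the genotypes. H3K4me3 in rank 990 was 1924 bp in CK and 5140 bp in CKp25 at 6 weeks.

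The other marks were then read in the clusters set apart by their acetylation. Over the 34 clusters at least 0.5 lower at both times, H3K27ac came to 508 kb in CK and 307 kb in CKp25 at 2 weeks and to 441 and 251 kb at 6 weeks, which is the choice itself. H3K4me1, which took no part in the choice, was 370 and 281 kb at 2 weeks (76.1% of CK) and 372 and 220 kb at 6 weeks (59.2%). H3K4me1 was lower in CKp25 in 32 and in 34 of the 34, and in 597 and 530 of all 1000. H3K4me3 stood at 99.6% of CK at 2 weeks and at 77.9% at 6 weeks. H3K36me3 stood at 96.2 and 84.5%, and H4K20me1 at 81.7 and 80.8%. The silencing marks were scarce in these 34 clusters. In CK, H3K27me3 lay over 1.11 and 1.83% of their span at 2 and 6 weeks. Over all 1000 clusters it lay over 0.324 and 0.525%. In the 34 it was 10.7 and 12.6 kb at 2 weeks (117% of CK) and 17.7 and 34.0 kb at 6 weeks (192%). All 1000 clusters stood at 108 and 165%. Among the 34, H3K27me3 was higher in CKp25 in 3 clusters and lower in 1 at 2 weeks, and higher in 7 and lower in 0 at 6 weeks. Ranks 104 and 291, both among the 34, had 5541 and 10608 bp in CK and 13077 and 14683 bp in CKp25 at 6 weeks. H3K9me3 stood at 44.2% of CK at 2 weeks and at 225% at 6 weeks, on at most 2.92 kb, so its direction differed between the times. Over all 1000 clusters H3K9me3 stood at 38.0 and 152%. In the 34, H3K4me1 thus had the lowest share of CK among the 4 marks of active chromatin at both times. H3K4me3 and H3K36me3 cover in them was further below CK at 6 weeks than at 2. Across all 1000 clusters the same 4 marks in CKp25 came to between 93.7 and 108% of CK at either time. In the 28 clusters at least 0.2 higher at both times, H3K4me1 stood at 112 and 122% of CK, H3K4me3 at 111 and 127%, H3K36me3 at 114 and 123%, while H4K20me1, at 93.9 and 96.7%, was below CK. In the 421 clusters within 0.2 of no change at both times, H3K4me1 was 98.4 and 100.2% of CK.

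The amount of H3K4me3 in the clusters, a measure outside the ranking, went with how far their acetylation differed. Whether the saturation of cover had a part in this was not tested. In 123 clusters the mean H3K4me3 cover of the CK lists was under 2 kb. This class does not stand for clusters without promoters, which were not located. Only 7 clusters had H3K4me3 under 500 bp in all 4 lists. The median H3K27ac log2 ratio of the 123 was -0.22 at 2 weeks and -0.17 at 6 weeks, and 17 of them (13.8%) were at least 0.5 lower at both times. So were 3.4% of the 1000 clusters and 8.02% of all 48989. Of the 532 clusters with 2 to 10 kb, 12 (2.26%) were so, with medians of -0.10 and 0.02. Of the 345 with at least 10 kb, 5 (1.45%) were so, with medians of -0.07 and 0.04, and these were also the longer clusters, with a median span of 30687 bp against 22648 bp in the first class. H3K36me3 separated the clusters less: the 131 clusters with H3K36me3 over at least 50% of the span in CK had medians of -0.13 and -0.04, and the 109 with no H3K36me3 base in any list had -0.12 and -0.02.

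**Figure D3:**
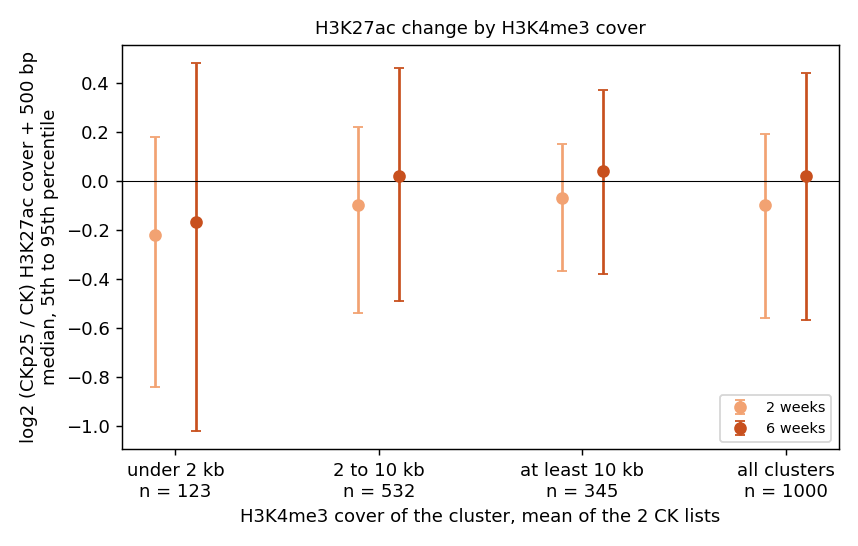
Log2 ratio of H3K27ac cover plus 500 bp in CKp25 to CK (y axis) at 2 weeks (pale) and 6 weeks (dark) for clusters grouped by mean H3K4me3 cover in the CK lists (x axis), as the median with a bar from the 5th to the 95th percentile over clusters. The class under 2 kb, 123 clusters, has the lowest medians, -0.22 and -0.17, and its bar reaches lowest, to -1.02 at 6 weeks.

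Over all 1000 clusters the marks of active chromatin other than H3K27ac showed small shifts. For H3K4me1, 8 clusters were lower and 1 higher in CKp25 at 2 weeks (background 14.8 and 5.93%), and 31 lower and 0 higher at 6 weeks (14.8 and 8.78%). With clusters ranked on all 4 H3K27ac lists the H3K4me1 counts at 6 weeks were 20 lower and 11 higher, and at a -log10 p of 10 they were 118 and 50. For H3K4me3, 10 were lower and 26 higher of 982 measured at 2 weeks (2.75 and 5.55%), and 36 lower and 20 higher of 991 at 6 weeks (4.93 and 5.65%). The H3K4me3 counts depend on the length of the lists, which was 109% of CK in CKp25 at both times. With lists of a common length 66 were lower and 4 higher at 2 weeks, and 96 lower and 21 higher at 6 weeks. At a -log10 p of 10 the counts at 6 weeks were 46 lower and 58 higher. No direction is therefore given for H3K4me3.

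The marks of transcribed bodies depended on list length too. For H3K36me3, 32 clusters were lower and 70 higher of 822 at 2 weeks (7.12 and 12.6%), and 49 and 78 of 809 at 6 weeks (7.59 and 16.2%). At a common list length these became 81 lower and 35 higher, and 92 and 41, so the balance turned. For H4K20me1, 63 were lower and 27 higher of 871 at 2 weeks (12.6 and 5.79%), and 58 and 48 of 877 at 6 weeks (9.43 and 10.2%), and at a common length 21 and 67 at 2 weeks. As reported, the directions were those of the lists' lengths, 106 and 108% of CK for H3K36me3 and 88.5 and 96.9% for H4K20me1.

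H3K27me3, the Polycomb mark, was scarce in the clusters and was the mark whose summed cover in CKp25 at 6 weeks lay furthest from the change of its list. It covered 95.7 kb of the clusters in CK and 104 kb in CKp25 at 2 weeks, and 155 and 256 kb at 6 weeks. The last pair is a ratio of 165%, while the whole list of CKp25 was shorter than that of CK, 86.4%. Of 97 clusters measured at 6 weeks, 60 were called higher in CKp25 (61.9%) and 12 lower (12.4%), with a background of 25.2% higher and 14.5% lower. A cluster is measured through either list, and 56 clusters reached 500 bp in CK and 87 in CKp25 at 6 weeks. One with no base in the other list is called by the rule itself, so these shares are a description. Among the next 1000 clusters 42 of 111 were higher (37.8%). At 2 weeks 16 of 52 measured clusters were higher and 10 lower (background 15.8 and 19.1%).

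List-to-list variation of this mark is large. Between the CK lists alone, 34 of 61 measured clusters were higher at 6 than at 2 weeks and 5 lower (background 38.7 and 3.46%), and the list itself was 151% as long. Between the CKp25 lists 69 of 90 were higher and 2 lower at 6 weeks (49.9 and 3.44%). With lists of a common length 41 clusters were higher and 6 lower in CKp25 at 6 weeks, and at the stricter -log10 p of 10, 17 were higher and 7 lower. Many of the differences were small: 32 of the 60 had no H3K27me3 base in CK at 6 weeks at the threshold used, and 18 of those 32 had a weaker peak in the full deposited list. The call of these 32 thus followed from their being measured in CKp25. The median cover of the 60 in CKp25 at 6 weeks was 1330 bp, from 500 to 13077 bp. At 2 weeks, whose lists took no part in this choice, 22 of the 60 were measured, of which 12 were higher and 4 lower. The background at 2 weeks was 15.8% higher and 19.1% lower. Ranks 54, 56, 75, 184, 214, 788 and 873, called higher, had no H3K27me3 base in CK at 2 weeks. Ranks 98, 330 and 573, called lower, had none in CKp25 at 2 weeks. The calls of these ranks also followed from their being measured, so the counts at 2 weeks are a description.

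**Figure D4:**
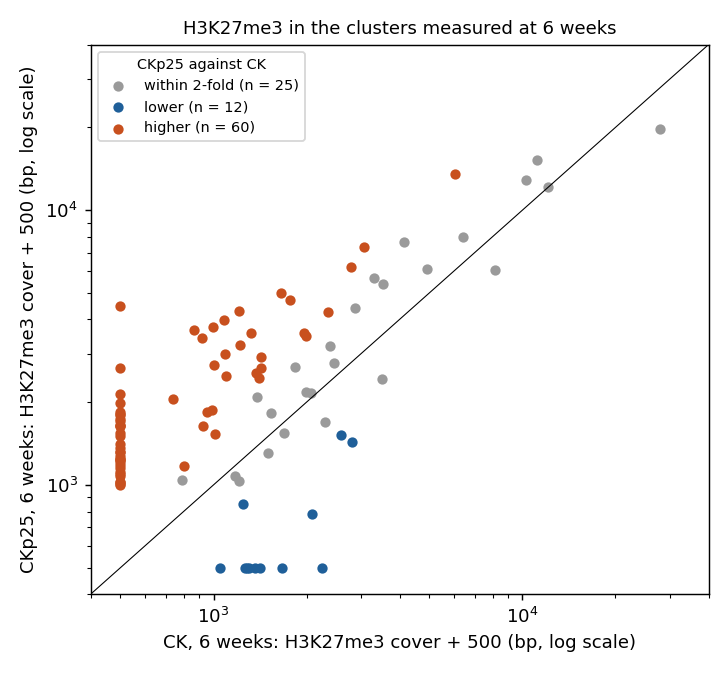
H3K27me3 cover plus 500 bp in CK (x axis) and CKp25 (y axis) at 6 weeks, both on log scales, for the 97 clusters measured, coloured by call, with a line of equal cover. The 60 clusters called higher include a column of 32 at the left edge with no H3K27me3 base in CK, and 12 are called lower.

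H3K27me3 listed only in CKp25 lay mostly under peaks of active marks. In the 60 clusters 99.3 kb were under H3K27me3 in CKp25 at 6 weeks and not in CK, and of these 80.1% were under H3K4me3 and 78.4% under H3K27ac in the CKp25 lists of that time. In CK at 6 weeks 84.7% of them were under H3K27ac. The clusters were chosen for H3K27ac, which covered 51.9% of the whole span of the 60 in CKp25 at 6 weeks. H3K4me3 covered 44.4% of that span, compared with 32.3% over all 1000. Lists from bulk tissue do not show whether marks share a nucleosome, an allele or a cell. The median H3K27ac log2 ratio of the 60 was -0.15 at 6 weeks, from -0.80 to 0.40, against 0.03 in the other clusters, and 46 of the 60 were below 0, as were 479 of all 1000. The 2 marks' calls met in part: 6 of the 60 were among the 34 clusters lower in acetylation at both times, which make up 3.4% of all 1000.

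Rank 104, chr12:109198481-109249123, had the largest excess of H3K27me3 in CKp25 at 6 weeks in base pairs, and it and the next 4 were chosen after their values were seen. Its H3K27me3 cover was 2712 bp in CK and 1931 bp in CKp25 at 2 weeks, and 5541 and 13077 bp at 6 weeks. Its H3K27ac was 29675 and 19732 bp, then 24046 and 14145 bp. H3K4me1 was 21801, 11774, 19187 and 7965 bp in the same order, and H4K20me1 24566, 16166, 27394 and 9310 bp. H3K4me3 remained broad, 32828, 33124, 35527 and 25777 bp. In this cluster the active marks were lower in CKp25 at 6 weeks while H3K27me3 was higher, and H3K27ac and H3K4me1 were lower already at 2 weeks, when H3K27me3 was not higher. It also has the greatest H3K9me3 cover of any member in CK, 1795 bp at 2 weeks.

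Of the next 4, 3 were unlike it in acetylation. Rank 54, chr3:88002477-88048706, had 2569 bp of H3K27me3 in CK and 6867 bp in CKp25 at 6 weeks, with 39790 and 39729 bp of H3K27ac. Rank 508, chr4:147523631-147550822, had 0 and 3987 bp, with 14132 and 14915 bp, and rank 783, chr3:87785355-87806906, 3635 and 7158 bp, with 9325 and 10610 bp. Rank 291, chr11:98174188-98204659, resembled rank 104, with 10608 and 14683 bp of H3K27me3, a difference within 2-fold, and 18045 and 12236 bp of H3K27ac. Higher H3K27me3 in CKp25 was thus present both with and without lower acetylation.

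**Figure D5:**
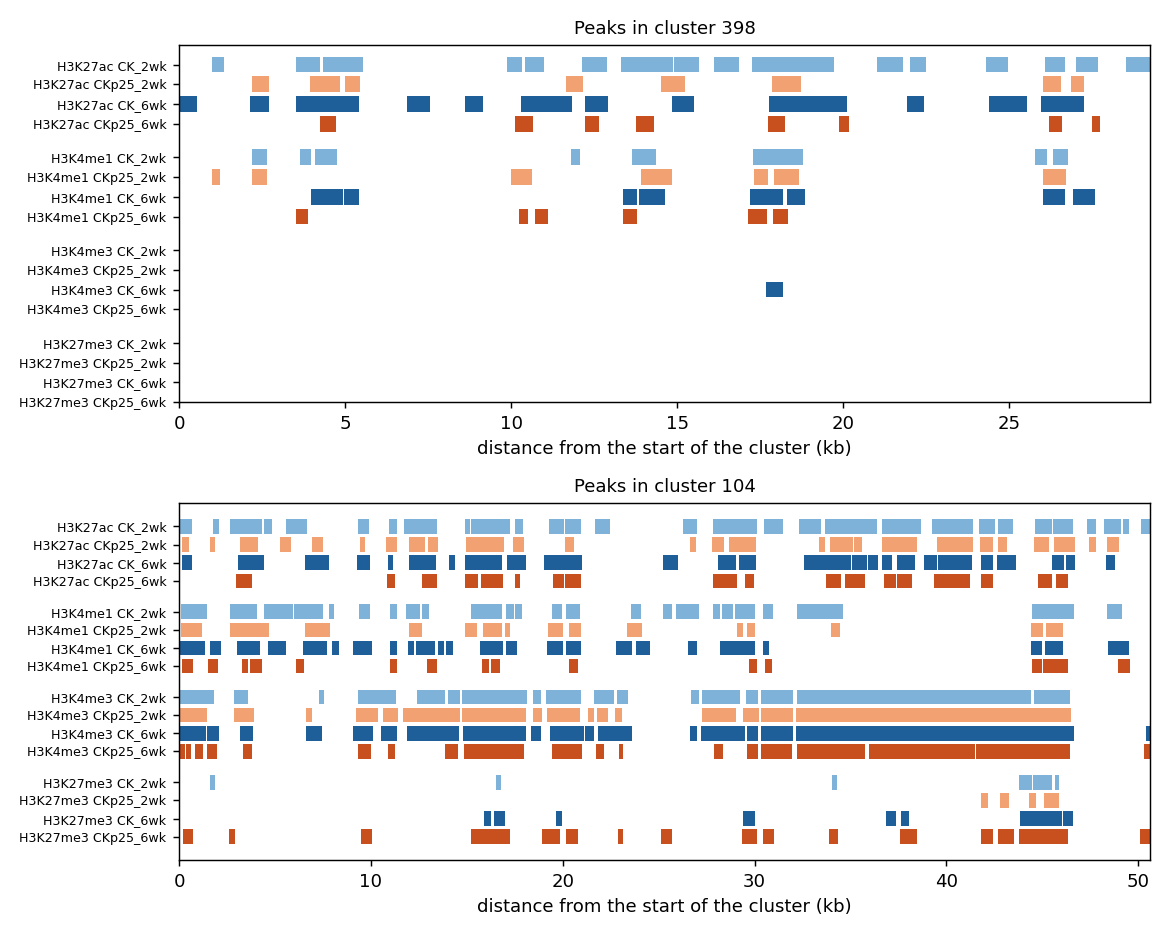
Peaks with a -log10 p of at least 5 in the 4 lists of H3K27ac, H3K4me1, H3K4me3 and H3K27me3 across cluster 398 (top) and cluster 104 (bottom), drawn as bars by distance from the start of the cluster in kb. Cluster 398 has fewer and shorter H3K27ac bars in both CKp25 lists, and cluster 104 has 13077 bp under H3K27me3 in CKp25 at 6 weeks beside broad H3K4me3.

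The clusters richest in H3K27me3 in CK were mostly not those with the largest excess in CKp25, rank 291 being in both sets. Rank 209, chr3:34535749-34572471, had the greatest cover of all, 23781 bp in CK and 21240 bp in CKp25 at 2 weeks and 27322 and 19243 bp at 6 weeks, with 19899 and 22911 bp of H3K27ac at 6 weeks. Rank 591, chr7:77490585-77515599, had 11596 and 11683 bp of H3K27me3 at 6 weeks, rank 834, chr2:38200584-38215749, had 9799 and 12360 bp, and rank 791, chr4:135689654-135706764, had 7632 and 5557 bp. H3K27me3 was within 2-fold between genotypes in these 4, and H3K4me3 covered most of the span of each. In CK at 2 weeks it covered 30974 of 36723 bp in rank 209 and 10308 of 17111 bp in rank 791.

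H3K9me3 was near absent. It had no base in any list in 900 of the clusters, and its summed cover was 18.5, 7.02, 16.2 and 24.7 kb in CK and CKp25 at 2 weeks and CK and CKp25 at 6 weeks. At 2 weeks 7 of 8 measured clusters were lower in CKp25 (background 46.0% lower and 2.00% higher), and at 6 weeks 4 of 22 were lower and 14 higher (15.0 and 40.2%). These counts rest on 24 to 63 peaks per list within the clusters, and the CKp25 list of 2 weeks was only 58.6% as long as that of CK.

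The strength of the peaks, the authors' fold enrichment over the extract, was similar inside and outside the clusters. The median H3K27ac peak in the clusters had a fold enrichment of 3.45 and 3.56 in CK and CKp25 at 2 weeks and 3.26 and 3.36 at 6 weeks, and elsewhere 3.22, 3.30, 3.08 and 3.12. The H3K4me3 peaks within the clusters were the weaker ones, at 3.70 in CK at 2 weeks against 4.47 elsewhere.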

How the data were processed

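Each mark and group has 1 deposited peak list. The tools named in the submitters' processing notes are MACS2, Bowtie, Picard and HTSeq 0.6.1, and the builds mm9 and NCBIM37. Their settings are not given in the sources used here. The authors' fold enrichment of each peak over whole cell extract (a ratio) and the -log10 of its p-value were used as deposited, to describe and to filter peaks within a list. All deposited -log10 p-values were above 2. The values of q are not filled in. Clusters, cover and calls were computed with Python 3.11.15 and numpy 2.4.6, and the interval code was tested on simulated data. Positions are 1-based. Clusters were named by rank: the 10 largest, the 5 lowest and 5 highest in H3K27ac by the smaller of their changes at the 2 times, the 5 with the most H3K4me3, H3K27me3 and H3K9me3 in CK, and the pairs beside the threshold of the ranking, with later additions marked in the text. The clusters, classes and rules were chosen with earlier results of these data known. Alternatives were a -log10 p minimum of 10, lists cut to a common length by raising that minimum, other rankings and stitching, other minimum covers and, added after seeing the data, all deposited peaks. The table of 12 RNA libraries was not used, since gene positions of this build were not used, and no sequence is printed for the same reason.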

Additional observations from a re-analysis of the deposited data

Results flagged for a closer look

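The summed H3K27ac cover of the 1000 clusters differed in sign between the times, with a log2 ratio of CKp25 to CK of -0.11 at 2 weeks and 0.01, close to no change, at 6 weeks. With lists of a common length the median log2 ratios over the clusters were -0.05 and -0.06, so the signs then did not differ. That of H3K9me3 was -1.40 at 2 weeks and 0.60 at 6 weeks. Each value compares 1 list with 1 list, and the difference between the times was not tested.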

How the results depend on the processing

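Of 142 counts of clusters recomputed under another setting, 69 stayed within 1.5 times of the reported one. No paired analysis was possible because each group has 1 list per mark. At a -log10 p of 10, counts lower and higher in CKp25 were 61 and 11 for H3K27ac at 2 weeks, 81 and 51 at 6 weeks and 31 and 3 at both times, 101 and 26 then 118 and 50 for H3K4me1, and 27 and 67 at 2 weeks and 58 higher at 6 weeks for H3K4me3. H3K36me3 had 56 lower at 2 weeks, H4K20me1 144 and 100 lower at 2 and 6 weeks, H3K27me3 1 and 1 then 7 and 17, H3K9me3 0 lower at 2 weeks and 1 and 1 at 6 weeks, and 6 and 0 clusters carried H3K27me3 and H3K9me3 in both CK lists. At a common list length, which whole peaks only approach (15.7 Mb for H3K27me3 in CK at 2 weeks against 17.5 Mb in the shortest list), H3K27ac had 29 lower at 6 weeks and 2 at both times, H3K4me1 2 higher at 6 weeks, H3K4me3 66 and 4 then 96 lower, H3K36me3 81 and 35 then 92 and 41, H4K20me1 21 and 67 then 77 higher, H3K27me3 6 lower at 6 weeks, and H3K9me3 3 lower at 2 and 5 higher at 6 weeks. With clusters ranked on all 4 H3K27ac lists, H3K27ac had 2 and 7 then 5 and 22, with 4 higher at both times, H3K4me1 4 and 3 then 20 and 11, H3K4me3 21 and 35 at 6 weeks, H3K27me3 19 lower at 6 weeks, and H3K9me3 11 and 1 at 2 weeks, and the median H3K27ac log2 ratios were -0.05 and 0.11. The H3K27ac counts were 17 and 1 then 17 and 3, with 4 lower at both times, for clusters ranked by span, 7 lower at 2 weeks, 1 higher at 6 weeks and 2 lower at both for clusters ranked on CK at 2 weeks, and 6 and 3 at 6 weeks with 2 lower at both for wider stitching. With all deposited peaks they were 1 lower at 2 weeks, 7 at 6 weeks and 0 at both, and H3K27me3 had 23 lower at 2 weeks. A minimum cover of 1000 bp left 18 clusters carrying H3K27me3 and 0 carrying H3K9me3, and one of 1 bp gave 20 for H3K9me3. The cause of these shifts was not tested. Without counts or replicates, no depth limit or error can be given.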
